A study of Mus musculus with 67 samples.

Results

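The genes described here encode the angiogenic ligand VEGF-A (Vegfa), its receptors VEGFR2 (Kdr) and VEGFR1 (Flt1), the co-receptor neuropilin-1 (Nrp1), the angiopoietin receptor Tie2 (Tek), the endothelial adhesion molecule CD31 (Pecam1) and the angiogenesis inhibitor PEDF (Serpinf1). They were chosen by name, with earlier results of these data known. Gene symbols were matched to the Ensembl identifiers of the deposited expression tables. All 7 were present among the 16930 genes of the retina table and among the 16714 genes of the table for the retinal pigment epithelium (RPE), and all 7 passed the filter on low values in both tissues.

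RNA was sequenced from the retina and the RPE of Abca4-/- Rdh8-/- mice, which lack a retinoid flippase and a retinol dehydrogenase of photoreceptors and are sensitive to light, so that the reference animals carried both deletions as well. The groups are named by their labels: NB, which is not spelled out and served as the reference, and 6h, 1d and 3d, for which the labels do not give the event that starts the clock. NB was sampled from retina in 6 libraries and from RPE in 5, 6h in 3 libraries of either tissue, and 1d and 3d in 4 libraries each of either tissue. A library pools both eyes of 1 mouse, the strain is given as C57BL/6J, the age is not given in the sources used here, and RPE cells were shaken off the eyecup before the remaining choroid was removed.

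VEGF-A is secreted by the RPE towards the choroidal capillaries and by glia and neurons of the retina, and it signals through VEGFR2 on endothelial cells, while VEGFR1 binds the ligand tightly and acts largely as a decoy. Neuropilin-1 holds VEGF-A and class 3 semaphorins for their signalling receptors, and Tie2 binds the angiopoietins and steadies mature vessels. PEDF is secreted by the RPE, opposes VEGF-A and protects neurons. In the mouse retina Kdr transcripts are found outside vessels too, in neurons and Müller glia.

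The start-site windows of Vegfa and Kdr are shown because these genes had the largest changes of the set, Vegfa in the RPE and Kdr in the retina. Each runs from 250 bases before to 50 bases after a start site in RefSeq (build GRCm38.p6) and is written 5′ to 3′ on the minus strand of the gene. Capitals mark GC boxes (GGGCGG) and the core of the hypoxia response element (ACGTG or GCGTG), on either strand. The Vegfa window lies at chr17:46032328-46032627 and the Kdr window at chr5:75978406-75978705.
Vegfa: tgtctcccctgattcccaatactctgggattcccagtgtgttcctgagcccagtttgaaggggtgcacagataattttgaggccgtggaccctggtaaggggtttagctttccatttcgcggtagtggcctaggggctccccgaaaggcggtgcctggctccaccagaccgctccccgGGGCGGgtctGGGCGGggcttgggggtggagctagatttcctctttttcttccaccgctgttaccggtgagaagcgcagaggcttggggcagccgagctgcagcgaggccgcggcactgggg
Kdr: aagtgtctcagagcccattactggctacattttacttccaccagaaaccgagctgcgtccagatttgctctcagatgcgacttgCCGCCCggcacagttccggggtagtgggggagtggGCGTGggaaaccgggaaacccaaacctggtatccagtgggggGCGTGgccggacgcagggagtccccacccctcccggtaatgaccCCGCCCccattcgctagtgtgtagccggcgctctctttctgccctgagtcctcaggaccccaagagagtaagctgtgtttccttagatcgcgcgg
The Vegfa window held 2 GC boxes, at positions -72 and -62 from the start, and no hypoxia response core. The Kdr window held 2 GC boxes, at positions -166 and -45, and 2 GCGTG cores, at -131 and -89. Among 32851 mouse windows of the same length, 35.7% held the GC box, 19.6% ACGTG and 32.4% GCGTG. Neither window held the STAT palindrome TTCNNNGAA (8.3% of windows), the AP-1 site TGANTCA (7.81%), the M-box CATGTG (14.2%) or the E-box CACGTG (7.15%, a motif that contains ACGTG on both strands). The window of another Vegfa start, inside the gene, held ACGTG at -211, GCGTG at -218 and a GC box at -158. Windows were also searched for Serpinf1, Flt1, Nrp1 and Tek. That of Serpinf1 held ACGTG at -93 and an M-box at -76, and those of Flt1 and Nrp1 held the GC box and GCGTG. That of Tek held none of these motifs. All these matches describe letters only.

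Reads recovered from the deposited values put the libraries into a deeper and a shallower set within each tissue. The deeper set held the 6h libraries with NB A1 and A2 in retina (22588712 to 32351974 reads) and with NB A1 in RPE (23132398 to 26822075 reads). The shallower set held NB B1 to B4 and all 1d and 3d libraries (9448854 to 15167932 reads in retina, 11457222 to 14400300 in RPE). The tissues matched their labels: 26 RPE markers summed to 13692 to 40573 CPM (CPM being read counts scaled to an effective library size) in RPE libraries, against 992 to 2027 CPM for the 25 of them listed in retina. The 17 rod markers summed to 25311 to 88219 CPM in retina and to 4340 to 18394 CPM in RPE libraries, so RPE libraries held rod transcripts. All 24 endothelial markers were listed in both tissues.

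**Figure D1:**
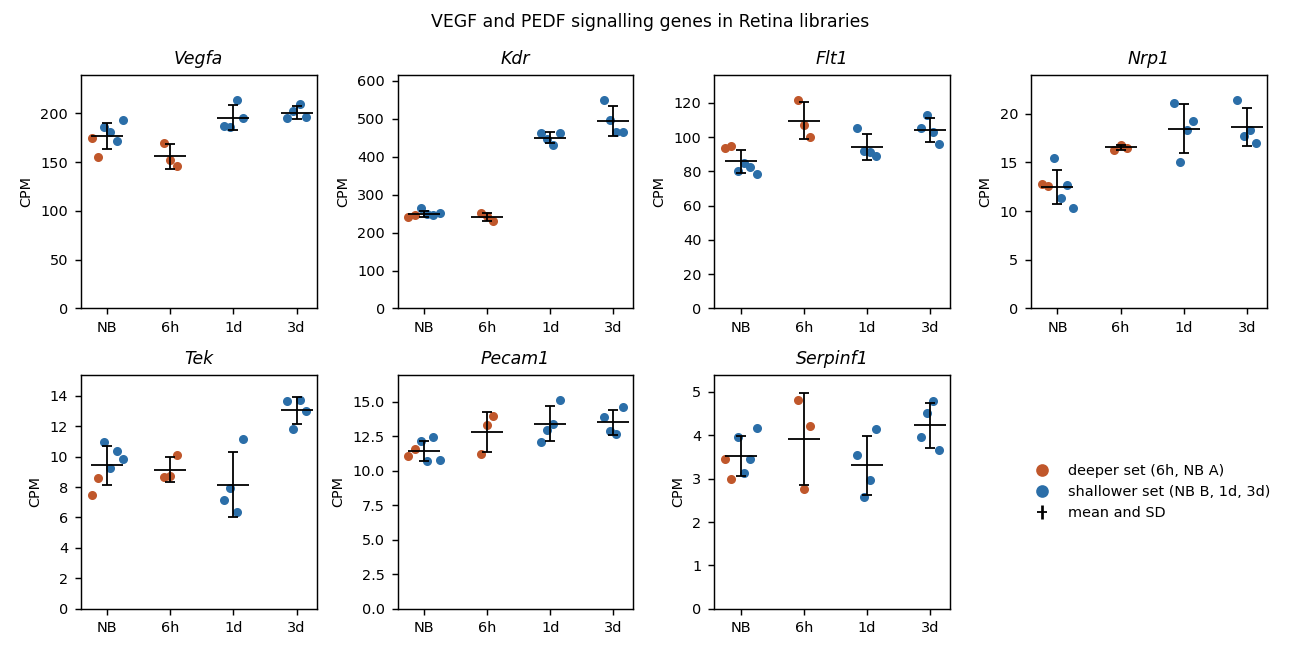
CPM of each gene in every retina library by group; points are libraries, coloured by depth set, and bars show the mean and SD. Kdr libraries of 1d and 3d, from 431 to 551 CPM, sit above all NB libraries, which reach 265 CPM.

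In the retina Kdr rose 1.8-fold at 1d and 1.97-fold at 3d, Nrp1 rose at every time, Flt1 rose at 6h and 3d, and Tek was higher than NB at 3d. Changes of Vegfa and Pecam1 were small, and Serpinf1 passed the test at no time. A call is an adjusted p under 0.05 from limma on log2(CPM + 0.5), Benjamini-Hochberg adjusted over the 16926 retina genes tested, and every fold change is on that scale, which understates changes of low genes. At 6h 3 members were called, 2 higher and 1 lower, where 16.9% of all genes were called higher, 18.5% lower and 35.4% in either direction. Against NB libraries of the same depth set none of these 6h calls, of Nrp1, Flt1 and Vegfa, was kept. At 1d 4 were called, all higher, where 24.0% of all genes were called higher, 27.5% lower and 51.5% in either direction. At 3d 6 were called, all higher, where 19.3% of all genes were called higher, 23.9% lower and 43.2% in either direction. Between 3d and 1d 1 member was called, higher, where 9.79% of all genes were called higher, 11.6% lower and 21.4% in either direction.

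Vegfa in the retina stayed within a narrow range. NB libraries had 155, 172, 175, 181, 185 and 194 CPM, and 6h libraries 146, 152 and 170 CPM. The 1d libraries had 186.1, 186.5, 195 and 214 CPM, and the 3d libraries 196, 196, 202 and 209 CPM. The 3d libraries all lay above the NB libraries, while 6h and 1d overlapped them. Vegfa fell by 0.18 ± 0.06 (log2 fold change ± SE) at 6h (limma adjusted p = 0.0314) and rose by 0.14 ± 0.06 at 1d (adjusted p = 0.0441) and by 0.18 ± 0.06 at 3d (adjusted p = 0.0147). Against the NB libraries of the same depth set no Vegfa change was called, with log2 fold changes of -0.08 at 6h (adjusted p = 0.456), 0.09 at 1d (adjusted p = 0.186) and 0.13 at 3d (adjusted p = 0.0713). The 6h call was also lost without 6h 2, 6h 3, NB B1, NB B2 or NB B4 (limma adjusted p 0.0536 to 0.181). The 1d call was lost without 1d 3, 1d 4, 3d 2, 3d 4, 6h 2, NB A1, NB A2, NB B2 or NB B3 (adjusted p 0.0505 to 0.167), and the 3d call without 3d 3 (adjusted p = 0.0527).

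Kdr, the main signalling receptor for VEGF-A, had the largest change of the set in the retina. NB libraries had 241, 246, 247, 250.3, 251 and 265 CPM, and 6h libraries 231, 243 and 251 CPM. The 1d libraries had 431, 446, 462 and 463 CPM, and the 3d libraries 464, 466.4, 496 and 551 CPM. All 1d and 3d libraries were thus above all NB and 6h libraries, and all 3d libraries were above all 1d libraries. The log2 fold change against NB was 0.85 ± 0.05 at 1d (limma adjusted p = 3.87e-11) and 0.98 ± 0.05 at 3d (adjusted p = 4.16e-11). At 6h it was -0.05 ± 0.05 (adjusted p = 0.495, 95% interval -0.16 to 0.06), and between 3d and 1d 0.13 ± 0.05 (adjusted p = 0.0832), which DESeq2 called (0.14, adjusted p = 0.04). Set against NB libraries of matching depth, the values were 0.83 at 1d and 0.96 at 3d, both called, and both calls held in each of the 25 alternatives run. The authors' deposited table gives Kdr log2 fold changes of 0.85 at 1d and 0.98 at 3d.

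Kdr also rose relative to the endothelial gene Pecam1 within each library, a ratio chosen after the values were seen and given with no test. The ratio of Kdr to Pecam1 CPM was 19.8 to 23.3 in NB, 16.5 to 22.3 at 6h, 30.5 to 38.2 at 1d and 31.7 to 39.7 at 3d, so that 1d and 3d did not overlap NB. Relative to Cdh5, which encodes VE-cadherin, it was 30.7 to 53.5 in NB. It was 54.2 to 67.1 at 1d and 57.9 to 64.5 at 3d, again without overlap, though narrowly at 1d. Ratios of Nrp1, Flt1 and Tek to Cdh5 overlapped NB at 6h, 1d and 3d. For Nrp1, NB reached 2.72, and the lowest libraries had 2.18 at 6h, 1.83 at 1d and 2.12 at 3d. For Flt1, NB had 10.3 to 20.6, against 13.3 to 22.5 at 6h and at most 14.5 at 3d. For Tek, NB had 1.29 to 1.86, against 1.51 to 1.88 at 3d. These ratios do not depend on how libraries are scaled. They compare groups and say nothing on which of the genes has more transcripts, since read numbers also follow transcript length.

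Flt1, the decoy-like receptor, had 78.6, 80.3, 82.7, 84.8, 93.5 and 94.9 CPM in NB, the highest 2 being the libraries of the deeper set. At 6h the libraries had 100, 107 and 122 CPM, at 1d 88.8, 91.1, 91.8 and 105 CPM, and at 3d 95.9, 103, 105 and 113 CPM. The 6h and 3d libraries lay above all NB libraries, and 1d overlapped them. Flt1 rose by 0.35 ± 0.07 at 6h (limma adjusted p = 0.00101) and by 0.28 ± 0.07 at 3d (adjusted p = 0.00227), while the 1d value was 0.14 ± 0.07 (adjusted p = 0.1). Within the depth sets the 6h value was 0.21 (adjusted p = 0.0642), and the 1d value of 0.20 was called (adjusted p = 0.0129), as it was without NB A2 (0.16, adjusted p = 0.0491).

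Nrp1, the co-receptor, had 10.3, 11.3, 12.5, 12.7, 12.8 and 15.4 CPM in NB and 16.3, 16.5 and 16.8 CPM at 6h. It had 15.1, 18.3, 19.3 and 21.1 CPM at 1d and 17.0, 17.8, 18.3 and 21.4 CPM at 3d. The 6h and 3d libraries were all above NB, and at 1d only the library with 15.1 CPM fell below the highest NB library. Nrp1 rose by 0.40 ± 0.11 at 6h (limma adjusted p = 0.00834), 0.54 ± 0.10 at 1d (adjusted p = 0.000175) and 0.56 ± 0.10 at 3d (adjusted p = 0.000199). The 6h value within the depth set was 0.37 (adjusted p = 0.0701), and the 1d and 3d calls held in each alternative run.

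Tek, the Tie2 receptor gene, was called at 3d alone against NB. NB libraries had 7.49, 8.57, 9.27, 9.84, 10.4 and 10.9 CPM and 6h libraries 8.63, 8.74 and 10.1 CPM. The 1d libraries had 6.37, 7.18, 7.94 and 11.2 CPM, and the 3d libraries 11.8, 13.0, 13.7 and 13.7 CPM. All 3d libraries were above all NB and all 1d libraries, while 1d and NB overlapped, with the lowest 1d libraries below all NB libraries and the highest above them. The log2 fold change was -0.21 ± 0.13 at 1d (limma adjusted p = 0.164), and Tek rose by 0.46 ± 0.13 at 3d against NB (adjusted p = 0.00617) and by 0.67 ± 0.14 between 1d and 3d (adjusted p = 0.00142). The 1d value was called when the library with 11.2 CPM, 1d 4, was left out (-0.37, adjusted p = 0.011) and within the depth set (-0.32, adjusted p = 0.0461).

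Pecam1, an adhesion molecule of endothelial cells and of platelets and leukocytes, had 10.7, 10.8, 11.1, 11.6, 12.2 and 12.4 CPM in NB. It had 11.2, 13.3 and 14.0 CPM at 6h, 12.1, 13.0, 13.4 and 15.1 CPM at 1d, and 12.7, 12.9, 13.9 and 14.6 CPM at 3d. Groups overlapped at 6h and 1d, and the 3d libraries lay just above NB. The rise was 0.22 ± 0.08 at 1d (limma adjusted p = 0.0315) and 0.23 ± 0.08 at 3d (adjusted p = 0.0284). Within the depth set neither was called (adjusted p = 0.0646 and 0.0595). The 1d call was lost without 1d 3, 1d 4, NB A1, NB B2 or NB B4 (adjusted p 0.0542 to 0.137) and the 3d call without 3d 1, 3d 4, NB B2 or NB B4 (adjusted p 0.0506 to 0.0991). Of 9 markers of the platelets and leukocytes that share Pecam1, 3 were in the retina table, of which 3 were higher at 1d and 2 at 3d. They summed to 2.96 to 4.60 CPM in NB, 8.72 to 11.1 CPM at 1d and 9.17 to 11.7 CPM at 3d. The list of 9 includes Ptprc, which is also in the list of microglia and macrophage markers described below. Of 4 red blood cell markers, 3 were higher at 1d and 4 at 3d, and the part of these cells in the Pecam1 rise was not tested.

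Serpinf1, the PEDF gene, was at 2.58 to 4.82 CPM in the retina, which was 26 to 119 reads a library. NB libraries had 2.99 to 4.17 CPM, 6h libraries 2.75 to 4.82, 1d libraries 2.58 to 4.14 and 3d libraries 3.66 to 4.79 CPM, and all groups overlapped. The 95% interval of the log2 fold change against NB ran from -0.22 to 0.45 at 6h, from -0.40 to 0.22 at 1d and from -0.08 to 0.54 at 3d. These intervals show which changes remain compatible with the values at this depth, and they are not detection limits.

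Genes of the wider pathway are described next, from lists chosen by name with earlier results of these data known. Members of the set were left out. Of 5 other VEGF ligand and receptor genes tested in retina, 2 were higher at 6h, 3 at 1d and 3 at 3d, and none was lower. At 3d 1 was higher with NB of the same depth set, and with library totals 4 were at 1d and at 3d. The shares of all genes called higher were those given above, 16.9%, 24.0% and 19.3%, and those called lower 18.5%, 27.5% and 23.9%. Nrp2, the other neuropilin gene, rose from 26.0 ± 1.47 CPM (SD) in NB to 32.6 ± 1.61 at 1d (log2 fold change 0.32 ± 0.05, limma adjusted p = 5.88e-05). Pgf, which encodes placental growth factor, a ligand of VEGFR1, rose from 1.18 ± 0.423 to 3.19 ± 0.585 CPM at 1d (1.16 ± 0.23, adjusted p = 0.000275). Of 13 partners of the neuropilins, 7 were higher and 0 lower at 6h, 10 and 1 at 1d, and 7 and 1 at 3d, with a median log2 fold change of 0.33 at 1d against -0.01 over all genes. Plxnd1, a semaphorin receptor of endothelial cells, rose from 7.44 ± 1.1 to 17.2 ± 0.539 CPM at 6h and 23.2 ± 3.14 CPM at 1d (1.58 ± 0.10, adjusted p = 2.85e-10). The semaphorin gene Sema3c rose from 12.2 ± 2.07 to 31.2 ± 3.29 CPM at 6h.

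Of 22 genes of VEGF receptor signal transduction in retina, 10 were higher and 0 lower at 6h, 9 and 7 at 1d, and 7 and 5 at 3d. Beside these and the next lists, all genes had 16.9% higher and 18.5% lower at 6h. They had 24.0% and 27.5% at 1d, and 19.3% and 23.9% at 3d. The adaptor gene Gab1 rose from 27.1 ± 1.22 to 54.5 ± 4.82 CPM at 1d (0.99 ± 0.06, limma adjusted p = 9.76e-11), and the kinase gene Src rose by 0.72 ± 0.06. Of 12 VEGF target and sprouting genes, 4 were higher and 2 lower at 6h, and 6 and 2 at 1d. Adamts1, a protease gene that VEGF induces in endothelial cells, rose from 27.7 ± 3.02 to 168 ± 1.49 CPM at 6h (2.59, adjusted p = 3.42e-14). Apln, a tip-cell ligand gene, fell from 1.84 ± 0.5 to 0.378 ± 0.222 CPM at 1d. Of 6 angiopoietin and Tie pathway genes besides Tek, 3 were higher and 0 lower at 1d and 2 and 0 at 3d. Tie1, a partner of Tie2, rose from 5.57 ± 0.739 CPM in NB to 8.86 ± 1.81 at 1d (0.61 ± 0.13) and 9.47 ± 1.06 CPM at 3d (0.72 ± 0.13).

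Of 24 genes of the hypoxia list in retina, 4 were higher and 6 lower at 6h, 3 and 12 at 1d, and 1 and 12 at 3d. Among all genes 24.0% were higher and 27.5% lower at 1d, and 19.3% and 23.9% at 3d. With values scaled to library totals, the split at 1d was 7 higher and 6 lower, and at 3d 4 and 7. Vldlr, a lipoprotein receptor gene in this list, fell from 415 ± 10.2 to 224 ± 33.2 CPM at 1d (-0.90 ± 0.07). Of 8 genes for PEDF receptors and binding partners, 4 were higher and 2 lower at 1d, among them Pnpla2, a lipase gene that also serves as a PEDF receptor, which rose from 16.4 ± 2.11 to 26.0 ± 4.83 CPM (0.64 ± 0.11). Of 9 other angiogenesis inhibitors, 4 were higher and 1 lower at 1d and at 3d. Timp3, a metalloproteinase inhibitor that blocks VEGFR2, rose from 141 ± 11.2 to 203 ± 37.3 CPM at 1d.

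Markers of the cells that could carry these transcripts moved as well, and their part in the results was not tested. In bulk tissue fewer cells of a type and less RNA per cell cannot be told apart. The shares of all retina genes called higher were 16.9% at 6h, 24.0% at 1d and 19.3% at 3d, and those called lower 18.5%, 27.5% and 23.9%. RPE markers were higher in retina libraries at 6h, 15 of 25 of them with 0 lower, and summed to 1396 to 2027 CPM against 992 to 1276 CPM in NB. Of 24 endothelial markers in retina, 6 were higher and 1 lower at 6h, 13 and 1 at 1d, and 12 and 2 at 3d. Their median log2 fold change was 0.29 at 1d and 0.35 at 3d, against -0.01 and -0.02 over all genes, and their summed level was 446 to 487 CPM in NB, 507 to 631 CPM at 1d and 450 to 488 CPM at 3d. Vwf, which encodes von Willebrand factor, rose from 6.69 ± 0.516 to 27.1 ± 3.46 CPM at 1d (1.94 ± 0.09). Of 12 pericyte and smooth muscle markers, 6 were higher and 0 lower at 1d and 8 and 0 at 3d (summed level 136 to 158 CPM in NB, 194 to 221 CPM at 3d). Of 13 Müller glia markers, 7 were higher and 3 lower at 1d and 11 and 0 at 3d, with a summed level of 4925 to 5501 CPM in NB, 3295 to 3897 CPM at 1d and 6182 to 6725 CPM at 3d. Microglia and macrophage markers, 12 of 15 of them higher at 3d, summed to 61.5 to 80.5 CPM in NB and 207 to 239 CPM at 3d. None of the markers of these lists that the table holds was at 0 in all libraries of a group.

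Rod markers fell, 17 of 17 at 1d and 16 of 17 at 3d, from a summed 79659 to 88219 CPM in NB to 25311 to 43498 CPM at 1d. Scaled to library totals rather than to the authors' effective sizes, the median log2 fold change of all retina genes was 0.15 at 1d and 0.13 at 3d. Higher genes then made up 74.3% of the calls at 1d (46.5% as deposited) and 77.0% at 3d (44.6% as deposited). Under that scaling Kdr was at 1.02 and 1.13, Nrp1 at 0.71 and 0.71, and Vegfa at 0.31 and 0.34 at 1d and 3d, all called. Flt1 was then called at 1d too (0.30, limma adjusted p = 0.000784), and Vegfa at 6h was not (-0.15, adjusted p = 0.0803).

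**Figure D2:**
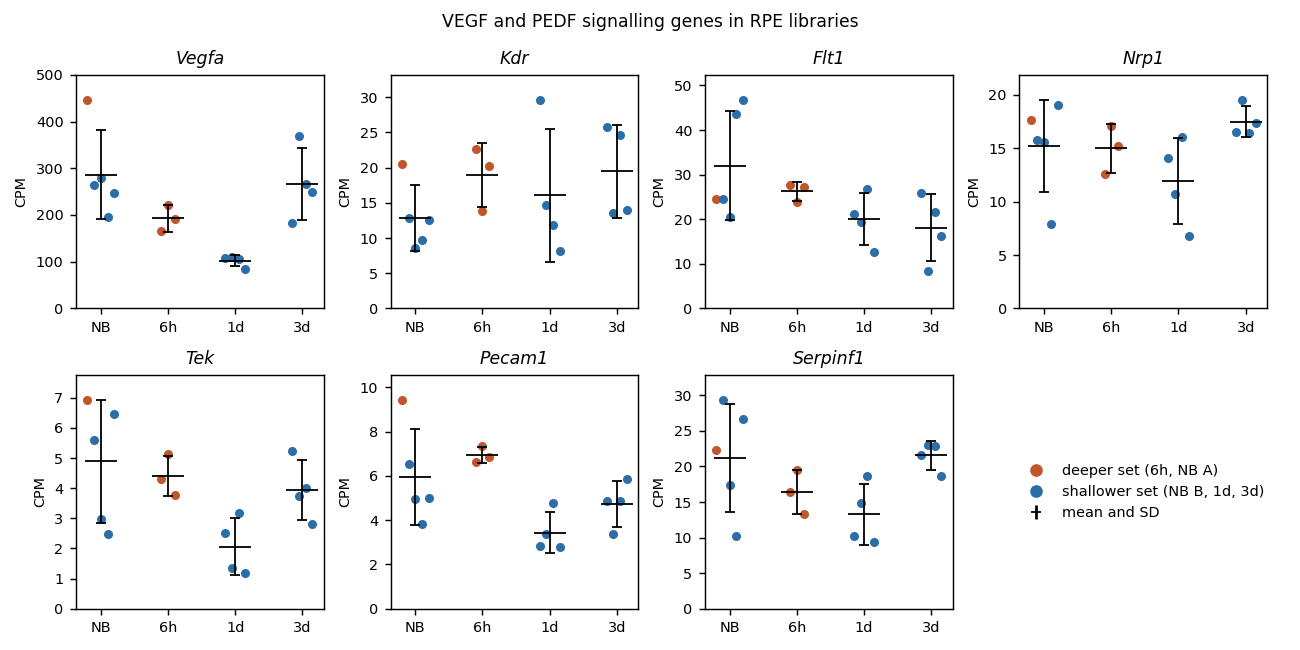
CPM of each gene in every RPE library by group; points are libraries, coloured by depth set, and bars show the mean and SD. The 4 Vegfa libraries of 1d, from 84.3 to 109 CPM, sit below all other libraries.

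In the RPE Vegfa was 2.71-fold lower at 1d than in NB and 2.55-fold higher at 3d than at 1d. Tek was lower at 1d at the edge of the threshold, and Kdr, Flt1, Nrp1, Pecam1 and Serpinf1 were not called by limma in any RPE comparison, while DESeq2 called Pecam1 lower at 1d. At 1d 2 of 7 members were called, both lower, where 3.84% of the 16712 genes tested were called lower, 1.77% higher and 5.61% in either direction. At 6h and 3d 0 members were called by limma, by edgeR or by DESeq2, where limma called 1.46% of all genes at 6h (0.808% higher, 0.652% lower) and 0.18% at 3d (0.162% higher, 0.018% lower). An unadjusted p under 0.05 was reached there by 1 member at 6h, Vegfa, and by 1 at 3d, Flt1. Between 3d and 1d 1 member was called, higher, where 4.92% of all genes were called higher, 1.66% lower and 6.58% in either direction.

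Vegfa in RPE libraries had 196, 247, 263, 280 and 447 CPM in NB, the highest being NB A1, the only NB library of the deeper set. The 6h libraries had 165, 191 and 222 CPM, and the 1d libraries 84.3, 105, 109 and 109 CPM. The 3d libraries had 184, 249.9, 266 and 369.9 CPM. All 1d libraries were below every library of the other groups, while 6h and 3d overlapped NB. Vegfa fell by 1.44 ± 0.21 at 1d (limma adjusted p = 0.000727, 95% interval -1.89 to -0.99) and rose by 1.35 ± 0.22 between 1d and 3d (adjusted p = 0.0037). Against NB the value was -0.53 ± 0.23 at 6h (adjusted p = 0.243), or -1.22 against NB A1 alone, the NB library of the same depth set (adjusted p = 0.0986). Leaving NB A1 out gave -0.35 at 6h (adjusted p = 0.275). At 3d the value was -0.09 ± 0.21 (adjusted p = 0.899, 95% interval -0.54 to 0.36).

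Against the shallower NB libraries alone the 1d value was -1.27 (limma adjusted p = 0.000925). The fall at 1d and the rise to 3d were called in each of the 24 alternatives run, with log2 fold changes of -1.56 to -1.27 and of 1.18 to 1.52. The authors' deposited table gives a log2 fold change of -1.49 for Vegfa at 1d, with an unadjusted p of 5.54e-05.

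RPE markers also had a lower summed level at 1d than in NB, and their part in the Vegfa result was not tested. Of 26 markers 10 were lower and 1 higher at 1d (median log2 fold change -0.67), and between 1d and 3d 13 were higher and 1 lower. Their summed level was 21913 to 36975 CPM in NB, 14389 to 20473 at 6h, 13692 to 18159 at 1d and 23063 to 40573 CPM at 3d. Both 6h and 1d thus lay below NB and 3d, while Vegfa itself overlapped NB at 6h. Rpe65, the isomerase of the visual cycle, fell from 2462 ± 797 to 432 ± 139 CPM at 1d (-2.51 ± 0.27, limma adjusted p = 4.3e-05), and Cdh3, which encodes P-cadherin, rose from 85.2 ± 6.81 to 149 ± 32.3 CPM (0.78 ± 0.15). Within a library, Vegfa per 1000 CPM of summed RPE markers was 8.67 to 12.1 in NB, 9.65 to 11.5 at 6h, 5.32 to 7.69 at 1d and 7.96 to 9.86 at 3d. This measure was chosen after the values were seen and has no test. On it the 1d libraries were again below all others, and 6h lay within the NB range. All 6h libraries were below NB A1 (12.1), the only NB library of their depth set. Rod markers in RPE libraries summed to 4340 to 10832 CPM at 1d and to 5359 to 8374 CPM in NB, and 0 of 17 rod markers were called by limma at 1d.

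**Figure D3:**
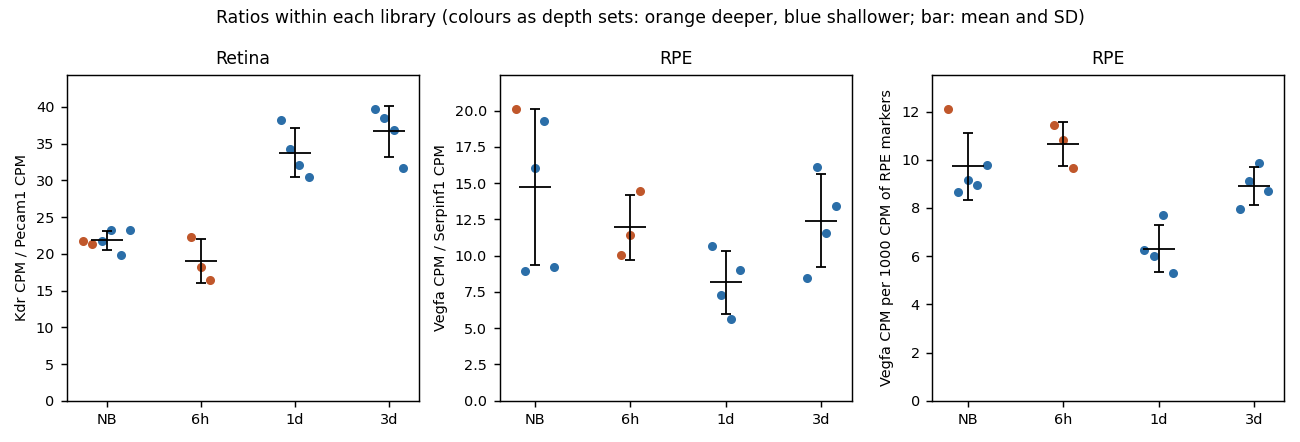
Ratios within each library by group: Kdr to Pecam1 CPM in retina, Vegfa to Serpinf1 CPM in RPE, and Vegfa CPM per 1000 CPM of summed RPE markers in RPE; points are libraries and bars show the mean and SD. The Kdr ratio of 1d and 3d lies above 30 and that of NB below 24, and the right panel shows the 1d libraries of RPE below 8.

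Serpinf1 in RPE had 10.2, 17.4, 22.3, 26.7 and 29.4 CPM in NB and 13.3, 16.4 and 19.5 CPM at 6h. It had 9.36, 10.2, 14.9 and 18.6 CPM at 1d and 18.6, 21.7, 22.9 and 23.0 CPM at 3d. The NB range covered that of 6h and 3d and all but the lowest 1d library. The log2 fold change was -0.62 ± 0.26 at 1d (limma adjusted p = 0.184, 95% interval -1.18 to -0.06) and 0.73 ± 0.28 between 1d and 3d (adjusted p = 0.11). Without NB B3, the NB library with 10.2 CPM, both were called (-0.85, adjusted p = 0.0207, and 0.73, adjusted p = 0.0431). The ratio of Vegfa to Serpinf1 CPM was 8.96 to 20.1 in NB, 10.0 to 14.4 at 6h, 5.66 to 10.7 at 1d and 8.47 to 16.1 at 3d, and these ranges overlapped.

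Tek in RPE had 2.48, 2.98, 5.61, 6.45 and 6.93 CPM in NB and 1.19, 1.37, 2.52 and 3.16 CPM at 1d, or 15 to 41 reads a library at 1d. The groups overlapped. The fall of 1.05 ± 0.30 at 1d had a limma adjusted p of 0.0496 and was lost in 17 of 24 alternatives, among them the NB libraries of the same set (adjusted p = 0.124) and the leaving out of 13 single libraries (adjusted p 0.0518 to 0.144). Those were 1d 1, 1d 2, 1d 4, NB A1, NB B1, NB B4, and each 6h and 3d library. At 6h it had 3.79, 4.30 and 5.13 CPM, and at 3d 2.83, 3.74, 4.00 and 5.25 CPM.

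Pecam1 in RPE had 3.80, 4.94, 4.99, 6.56 and 9.43 CPM in NB, 6.64 to 7.36 at 6h, 2.78 to 4.79 at 1d and 3.37 to 5.88 CPM at 3d. The 1d value was -0.68 ± 0.22 (limma adjusted p = 0.0899) and was called without 1d 3 (-0.83, adjusted p = 0.0483) or without NB B3 (-0.81, adjusted p = 0.034), and by DESeq2 (-0.80, adjusted p = 0.035). Nrp1 had 7.92 to 19.0 CPM in NB, 12.6 to 17.1 at 6h, 6.82 to 16.1 at 1d and 16.4 to 19.6 at 3d, with -0.34 ± 0.24 at 1d (adjusted p = 0.435). All 3d libraries of Nrp1 were above all 1d libraries (0.59 ± 0.26, adjusted p = 0.146).

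Flt1 in RPE was uneven among NB libraries, with 20.5, 24.5, 24.5, 43.5 and 46.8 CPM. It had 23.8 to 27.7 CPM at 6h, 12.6 to 26.8 at 1d and 8.50 to 25.9 at 3d, with -0.63 ± 0.31 at 1d (limma adjusted p = 0.248) and -0.83 ± 0.31 at 3d (adjusted p = 0.393). Kdr had 8.55 to 20.6 CPM in NB, 13.8 to 22.6 at 6h, 8.09 to 29.7 at 1d and 13.6 to 25.8 at 3d. Its log2 fold change in RPE was 0.22 ± 0.33 at 1d (adjusted p = 0.748), with a 95% interval of -0.48 to 0.91 that includes the retina value.

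Other pathway genes were also tested in RPE, where 1.77% of all genes were called higher and 3.84% lower at 1d. Between 1d and 3d the shares were 4.92% higher and 1.66% lower. Of 6 other VEGF ligands and receptors, 0 were higher and 1 lower at 1d: Pgf, which fell from 11.5 ± 3.25 to 5.80 ± 2.46 CPM (-0.97 ± 0.27, limma adjusted p = 0.0484). With NB of the same depth set, and with library totals, 0 of the 6 were called by limma. Of 7 angiopoietin and Tie genes besides Tek, 3 were lower at 1d and 0 higher, namely Tie1 (7.76 ± 1.71 to 4.12 ± 1.28 CPM), the phosphatase gene Ptprb (12.3 ± 7.24 to 4.62 ± 1.29 CPM) and the adaptor gene Dok2 (2.01 ± 0.537 to 0.876 ± 0.408 CPM). With NB of the same depth set 1 of the 7 was lower, and with library totals 2 were. Of 10 other angiogenesis inhibitors, 3 were lower and 0 higher at 1d, and 5 were higher and 0 lower between 1d and 3d. They were Thbs1, the thrombospondin-1 gene, which fell from 359 ± 127 to 131 ± 23.7 CPM (-1.40 ± 0.24), the collagen gene Col4a3 (137 ± 52.9 to 52.8 ± 12.5 CPM) and Timp3 (1909 ± 589 to 944 ± 132 CPM). Both Vegfa and these inhibitors were therefore lower at 1d than in NB.

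Of 26 hypoxia genes in RPE, 1 was higher and 2 lower at 6h, and 0 were higher and 4 lower at 1d. With library totals 0 were higher and 0 lower at 6h, and 0 and 2 at 1d. With NB of the same depth set 0 were higher and 3 lower at 1d. Among all genes 0.808% were higher and 0.652% lower at 6h, and 1.77% and 3.84% at 1d. Slc2a1, a glucose transporter gene, fell from 1058 ± 141 to 538 ± 116 CPM at 6h and 628 ± 88.8 CPM at 1d, and Car12, a carbonic anhydrase gene, fell from 434 ± 89.1 to 220 ± 22.0 and 220 ± 35.6 CPM. Of 8 genes for PEDF receptors and partners, 2 were lower at 1d, G0s2, an inhibitor of the lipase that Pnpla2 encodes, and Lrp6, a Wnt co-receptor gene. Of 24 endothelial markers, 1 was higher and 5 lower at 1d (median -0.55), with a summed level of 343 to 604 CPM in NB and 271 to 363 CPM at 1d. Within the same depth set 1 was higher and 2 lower. None of these markers was at 0 in all libraries of a group, so endothelial transcripts were present in RPE libraries. Their part in the Tek, Pecam1, Flt1 and Kdr values was not tested. Rod transcripts were present too, with marker sums of 5359 to 8374 CPM in NB RPE and 79659 to 88219 CPM in NB retina. Flt1 and Kdr had means of 32.0 and 12.9 CPM in NB RPE, and of 85.8 and 250 CPM in NB retina. The part of retina transcripts in the RPE values of these genes, and in the tissue differences given below, was not tested.

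**Figure D4:**
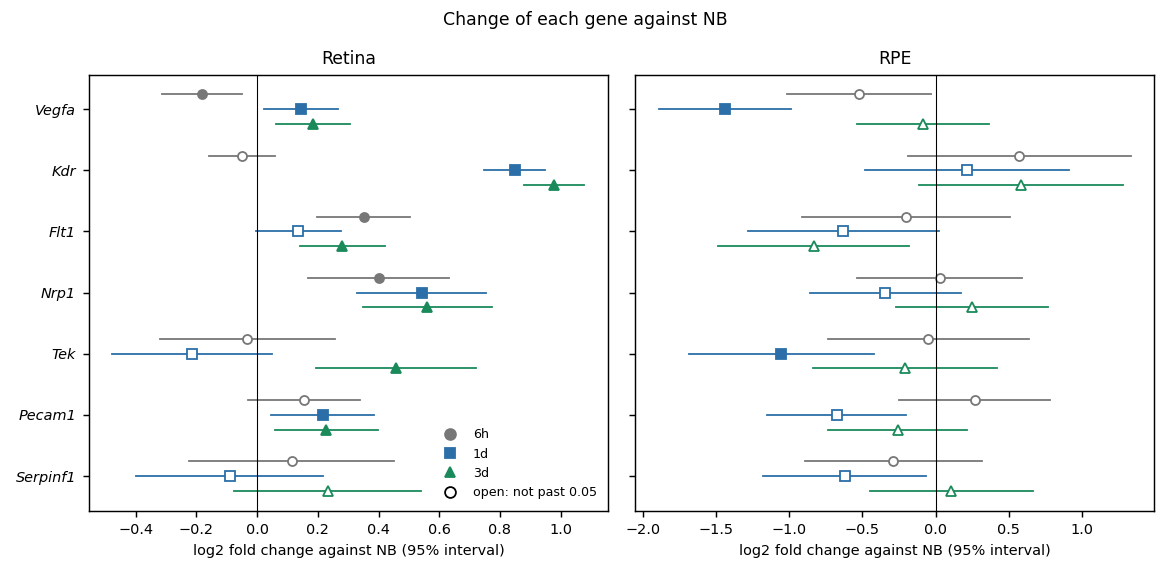
Log2 fold change of each gene against NB at 6h, 1d and 3d in retina and RPE, with 95% intervals from the limma fit; filled symbols passed an adjusted p of 0.05, and the horizontal scales of the panels differ. In retina the Kdr values of 1d and 3d stand at 0.85 and 0.98, and in RPE the Vegfa value of 1d stands at -1.44.

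The tissue tables were normalized separately, so levels were not tested between tissues, and only the difference of the responses was. The protocol takes retina and RPE from the same eyes, so libraries of the tissues may share mice, which this test does not model. Side by side, Vegfa had a mean of 177 ± 13.1 CPM in NB retina and 287 ± 94.9 CPM in NB RPE, and Kdr 249.99 ± 7.90 and 12.9 ± 4.68 CPM. Serpinf1 had 3.53 ± 0.465 CPM in NB retina and 21.2 ± 7.65 CPM in NB RPE. Fibroblast markers, 9 in RPE and 6 in retina, summed to 531 to 996 CPM in NB RPE and 29.0 to 88.8 CPM in NB retina. Pericyte and smooth muscle markers summed to 565 to 1022 CPM in NB RPE and 136 to 158 CPM in NB retina. RPE libraries thus held transcripts of such cells, and their part in the Serpinf1 and Nrp1 values was not tested.

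At 1d the RPE response was below the retina response for 3 of 7 members, where 12.1% of the 15105 genes tested in both tissues were called lower, 9.66% higher and 21.7% in either direction. The difference was -1.58 ± 0.22 for Vegfa (limma adjusted p = 5.63e-06), -0.89 ± 0.23 for Pecam1 (adjusted p = 0.00584) and -0.89 ± 0.27 for Nrp1 (adjusted p = 0.0166). It was -0.63 ± 0.33 for Kdr (adjusted p = 0.183). At 3d the difference was called for Flt1 alone (-1.11 ± 0.32, adjusted p = 0.021), where 5.93% of genes were called lower, 6.26% higher and 12.2% in either direction. At 6h no member was called by limma and 0 had an unadjusted p under 0.05, where 9.0% of genes were called higher, 8.56% lower and 17.6% in either direction. The Vegfa difference at 6h was -0.34, or -1.14 with NB of the same depth set, where RPE had 1 NB library. Scaled to library totals, the median difference of all genes at 1d was -0.17, and higher genes made up 17.1% of the calls (44.4% as deposited). The Nrp1 call at 1d was lost without RPE 1d 4 (adjusted p = 0.05) and the Flt1 call at 3d without RPE 3d 2 (adjusted p = 0.0586). Calls were gained at 1d by Flt1 without RPE 1d 3, RPE 3d 2 or RPE NB B2, and by Tek without RPE 1d 1, RPE 1d 3, RPE NB B2, RPE NB B3 or retina 1d 3 (adjusted p 0.0325 to 0.0422 and 0.0128 to 0.0467). Kdr gained it without RPE 1d 1 (adjusted p = 0.0137) and Serpinf1 without RPE NB B3 (adjusted p = 0.029).

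The genes most like each member across the libraries of a tissue are given by Pearson's r of log2(CPM + 0.5), as a description over libraries that share groups and depth sets. Over 17 retina libraries Kdr was most like Pbxip1 (r = 0.98) and Rab11fip4 (0.97), Vegfa like Fam219b (0.91) and Cldn5 (0.90), and Flt1 like Lrp1 and Cacna1c (both 0.87). Nrp1 was most like Ptpn3 (0.91) and Ina (0.90), Tek like Ctnnbip1 (0.90) and Agt (0.86), Pecam1 like Gpc3 (0.82) and Acvr1 (0.80), and Serpinf1 like Lpcat3 and Pkdcc (both 0.80). Over 16 RPE libraries Vegfa was most like Itpr1 and Plce1 (both 0.99), Kdr like Snhg11 and Tnik (both 0.87), and Flt1 like Prickle1 (0.88) and Tfcp2l1 (0.86). Nrp1 was most like Colec12 and Eya1 (both 0.97), Tek like Cd34 (0.94) and Eng (0.90), Pecam1 like Ptprb (0.91) and Zfp266 (0.89), and Serpinf1 like Adamts2 (0.88) and Bgn (0.87).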

How the data were processed

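RNA of 33 libraries, 17 of retina and 16 of RPE, was prepared with a stranded mRNA kit, per the labels' protocols. The submitters' processing notes name Trimmomatic, STAR, edgeR and the build GRCm38 among their tools, and versions are not given in the sources used here. The deposited signal values are CPM on an effective library size, 1 table a tissue, normalized separately. All deposited values were whole reads within 0.01 read (100% of values), and the recovered counts gave the depths. The authors deposited log2 fold changes, which are shrunken, and unadjusted p-values from tests against some minimum fold. The size of that fold is not given in the sources used here. In retina only Kdr, at 1d and 3d, had such a p under 0.05. Nrp1 had 0.117 at 1d and 0.0937 at 3d by that test, and Tek 0.282 at 3d. In RPE it was under 0.05 for Vegfa, Tek and Pecam1, at 1d. These tests ask for a larger change than the limma calls do. The 6h, 1d and 3d columns were matched to samples by name, and NB columns to their group only. 16924 of 16930 retina and 16707 of 16714 RPE identifiers matched a symbol.

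The main test was limma 3.58.1 (trend) on log2(CPM + 0.5) in R 4.3.3, with all groups of a tissue in 1 fit, over genes with at least 1 CPM in at least 3 libraries, and p-values were Benjamini-Hochberg adjusted with a threshold of 0.05. Within a tissue, a library pools the eyes of 1 mouse, while libraries of the tissues may share mice. The difference of the responses of the tissues was tested in 1 fit over 15105 genes. Alternatives were a pseudocount of 0.1 or 2, no filter, scaling to library totals, edgeR 4.0.16 and DESeq2 1.42.0 on recovered reads, only the groups compared, NB libraries of the same depth set, a replicate block and leaving out each library. Weights per tissue, same-numbered libraries of the tissues as 1 mouse, the ratios and the motifs were chosen after seeing the data. The members and gene lists were chosen with earlier results of these data known. The text names all members, and from each list genes among the up to 4 per tissue with the smallest adjusted p over the comparisons with NB. It also names the 2 genes most like each member by Pearson's r, among genes with a mean of at least 5 CPM. Counting limits the precision of low genes, and the scripts were tested on simulated data.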

Additional observations from a re-analysis of the deposited data

Results flagged for a closer look

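Vegfa in the RPE library 1d 4, at 84.3 CPM, lay far from the other 1d libraries, the only such case among 42 groups of 4 to 6 libraries examined, where chance gives about 1 in 20. The response at 1d differed between RPE and retina for Vegfa (-1.58), Pecam1 (-0.89) and Nrp1 (-0.89), by the limma test of the difference itself (adjusted p = 5.63e-06, 0.00584 and 0.0166). The response at 3d differed for Flt1 (-1.11, limma adjusted p = 0.021).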

How the results depend on the processing

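No member that was called changed sign under any alternative. The number of members called at 1d in RPE, 2, was 1 with NB of the same depth set, with only the groups compared, with a pseudocount of 2 and with library totals, 3 with DESeq2, and 1 to 4 when single libraries were left out. Leaving out single libraries gave 2 to 4 at 1d in retina (4 with all), 1 to 2 between 3d and 1d in RPE (1 with all), 2 to 5 for the tissue difference at 1d (3 with all) and 0 to 1 at 3d (1 with all). DESeq2 called 2 between 3d and 1d in retina in place of 1, and library totals gave 5 for the tissue difference at 1d. NB of the same depth set gave 0 at 6h in retina in place of 3, and 1 for the tissue difference at 6h in place of 0, where the RPE arm then had 1 NB library, assumed to vary like the other groups. The cause of these shifts was not tested. Taking same-numbered 6h, 1d and 3d libraries of the tissues as 1 mouse, with NB libraries unpaired, gave a consensus correlation of -0.018 and the same numbers of members called in the tissue difference (0 at 6h, 3 at 1d and 1 at 3d). Over all genes, DESeq2 called 1250, 1668, 139 and 1977 genes in RPE at 6h, 1d, 3d and between 3d and 1d, where limma called 244, 937, 30 and 1100. Leaving out single libraries gave 9 to 1012, 617 to 1429, 15 to 38 and 363 to 2038, and only the groups compared 452, 537, 19 and 527. At 6h in RPE edgeR called 383 genes, the same depth set 32 and library totals 147. For the tissue difference at 6h, 2653 calls became 887 with the same depth set and 1533 to 3755 with single libraries left out, and 1842 at 3d became 1321 to 3271. With a replicate block, possible between 3d and 1d only since NB columns carry no number, 1 member was called in each tissue, Tek in retina (limma adjusted p = 0.00567) and Vegfa in RPE (adjusted p = 0.0044). The correlation of same-numbered 1d and 3d libraries was -0.32 to 0.23 in retina and -0.04 to 0.16 in RPE. With 6h libraries it was -0.54 to 0.35 in retina and -0.29 to 0.30 in RPE. So few libraries cannot decide whether the numbers pair them. The block gave 3252 in place of 3626 calls in retina and 854 in place of 1100 in RPE. Low reads limit Serpinf1 in retina and Tek in RPE.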
